A study of Homo sapiens with 6 samples.

Results

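Glycolytic enzymes and target genes of the hypoxia-inducible factors (HIF) were examined in the human colorectal carcinoma line HCT116. The gene set listed 37 symbols, drawn up by function with earlier results of these data known, and 35 were measured among 18404 genes. Each gene was represented by its single-symbol probe set of highest mean. CA9 is not analysed here, and PGAM1 was named only by probe sets shared with its near-identical copy PGAM4. HCT116 cells were sorted into a fraction positive for CD133, a surface glycoprotein encoded by PROM1, and a fraction negative for it. Total RNA of each fraction was hybridised to Affymetrix arrays in 3 repetitions, giving 3 CD133+ and 3 CD133- arrays. No treatment, oxygen level, density or time in culture is given in the labels, and both fractions come from this 1 cell line. What a repetition was (a culture, a passage, a sort) is not in the labels, so each p-value reflects the spread among these 6 arrays, which may be technical. PROM1 itself was 2.77 higher on the log2 scale in CD133+ cells (limma adjusted p = 0.0120 with repetition as a block, 0.142 with group alone, 0.0980 with the block and without repetition 3).

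Values are log2 signals, on which a difference of 1 is a doubling, and "adjusted p" is the limma p adjusted by Benjamini-Hochberg over all 28230 probe sets. Colon epithelial markers EPCAM, CDH1, KRT8, KRT18, KRT19 and CLDN7 lay above the array median in all 6 arrays, and VIL1 (mean 4.53) lay below it. Of markers of other cell types, 0 of 4 leukocyte, 0 of 4 endothelial and 0 of 2 erythroid genes lay above the array median in every array, against 1 of 5 fibroblast genes, the collagen gene COL1A1. All 35 genes of the set lay above it in every array. Arrays of 1 repetition correlated at 0.992 to 0.995 and arrays of 1 fraction at 0.984 to 0.992 over probe sets, given as a description.

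HIF is a dimer of an oxygen-sensitive alpha subunit (HIF1A or EPAS1) and the stable partner ARNT. In oxygen, prolyl hydroxylases of the EGLN family mark the alpha subunit, and VHL, the recognition part of a ubiquitin ligase, has it destroyed. Low oxygen spares it, mostly by protein stability rather than transcript level, and the dimer then binds short ACGTG or GCGTG elements and raises genes of glucose use, pH control, matrix hydroxylation and mitophagy. Colorectal carcinoma cells also run glycolysis in the presence of oxygen.

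The sorted fractions differed little in these genes, whereas both arrays of repetition 2 stood apart from the other 4. None of the 35 passed the test between fractions, and the median difference, CD133+ minus CD133-, was 0.017. In repetition 2, 25 of the 35 were called lower than in repetitions 1 and 3, where 6.44% of all genes were. HIF1A was the 1 gene called higher, where 11.6% of all genes were. These 26 calls became 8 without the CD133- array of repetition 2, and HIF1A was called in none of the 6 fits with 1 array left out. The aldolase gene ALDOC, the stress-response gene NDRG1 and the nuclear ankyrin-repeat gene ANKRD37 were 5.27-fold, 4.9-fold and 4.54-fold lower in repetition 2. Repetition accounted for a median of 95.8% of the variance of these genes over the 6 arrays and fraction for 0.954%, against 67.8% and 8.21% over all genes. These are shares of the sum of squares, not corrected for there being 3 repetitions and 2 fractions.

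**Figure D1:**
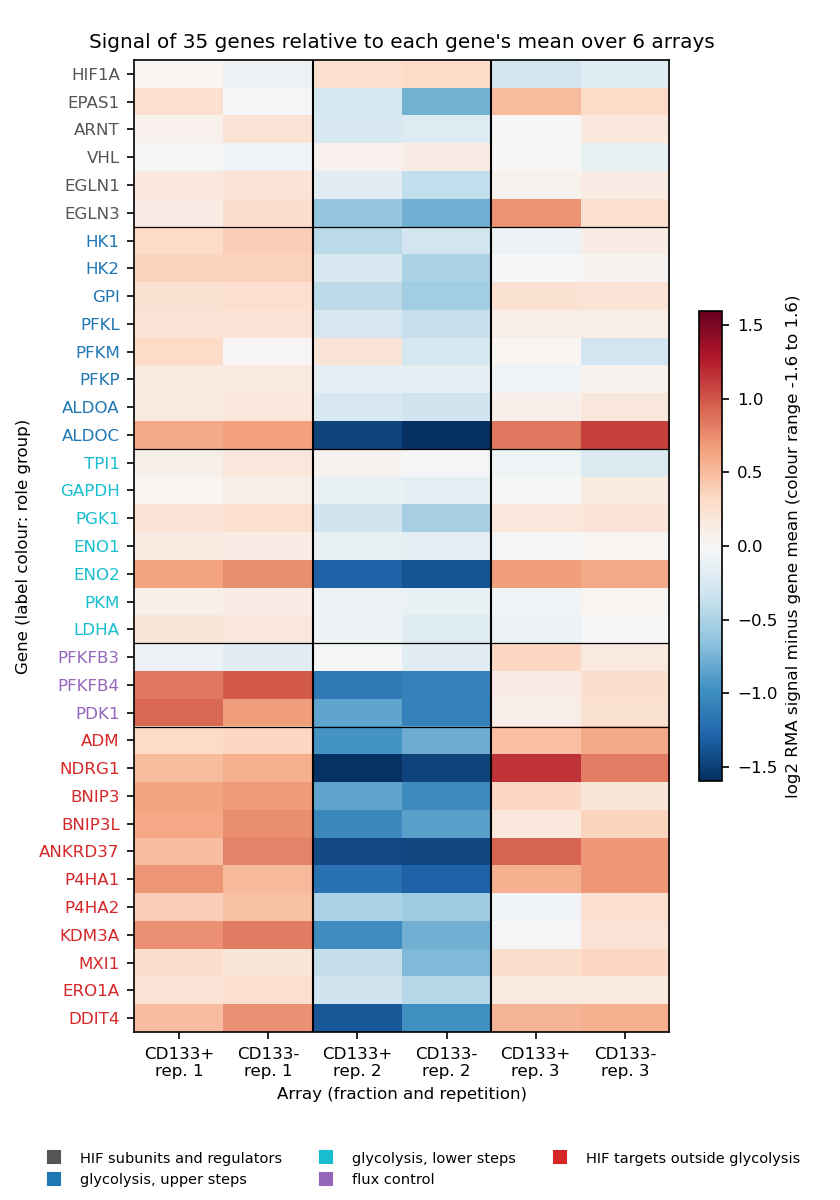
Signal of each of the 35 genes (rows, label colour by role) in the 6 arrays (columns), as log2 RMA signal minus the gene's mean over the 6 arrays; colours are capped at 1.6 in each direction. Both repetition 2 columns are blue for most genes, deepest for ALDOC, NDRG1, ANKRD37 and ENO2, and the CD133+ and CD133- columns of a repetition look alike.

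Between the fractions, 0 of 35 genes passed with group as the only term, where 0.00543% of all genes did (limma adjusted p = 1.00 for all 35, with 1 of 35 at an unadjusted p under 0.05). With the repetition block, which compares the fractions within each repetition, 0 of 35 passed again, where 0.369% of all genes did, 0.196% higher and 0.174% lower in CD133+ (smallest limma adjusted p = 0.182, with 2 of 35 at an unadjusted p under 0.05). CD133+ lay above CD133- for 19 of 35 genes, against 47.9% of all genes. The median within repetitions 1, 2 and 3 was -0.034, 0.084 and -0.058, with 11, 24 and 12 genes above 0. The sign was the same in all 3 repetitions for 12 of 35 genes, where 36.1% of all genes had this. In the fit with the block, 33 of 35 genes had a 95% interval of the difference within 0.5 either way and all 35 had one within 1. In such bulk samples, fewer cells of a type and less RNA per cell cannot be told apart. Without repetition 2 again 0 of 35 passed, with or without the block.

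PFKM, the muscle-type phosphofructokinase of the committed step of glycolysis, was the gene with the smallest unadjusted p between the fractions. Its signals, given throughout as CD133+ then CD133-, were 9.21 and 8.91 in repetition 1, 9.10 and 8.61 in repetition 2, and 8.92 and 8.59 in repetition 3. CD133+ was above CD133- in each repetition, and PFKM was the 1 gene of 35 whose fractions did not overlap, where 7.95% of all genes had this. The difference was 0.38 (95% interval 0.17 to 0.58), and the limma adjusted p was 0.182 with the block. The other phosphofructokinase genes, PFKL of liver type and PFKP of platelet type, had differences of 0.04 and -0.046.

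EPAS1, which encodes HIF-2 alpha, came next. It measured 8.01 and 7.71 in repetition 1, 7.46 and 6.99 in repetition 2, and 8.25 and 8.07 in repetition 3. The CD133+ array was the higher in each repetition, although the ranges of the fractions overlapped, with repetition 2 low in both. The difference was 0.32 (95% interval 0.10 to 0.54; limma adjusted p = 0.273 with the block). HIF1A, the HIF-1 alpha gene, had within-repetition differences of 0.13, -0.049 and -0.10, with no common sign.

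Another 6 genes had the next smallest p-values with the block, and none passed. KDM3A, a histone demethylase, measured 9.09 and 9.19 in repetition 1, 7.36 and 7.59 in repetition 2, and 8.33 and 8.59 in repetition 3, and CD133- was the higher in each repetition (difference -0.20, 95% interval -0.40 to 0.00035). BNIP3L, a mitophagy receptor, measured 9.55 and 9.67 in repetition 1, 7.89 and 8.06 in repetition 2, and 9.10 and 9.27 in repetition 3, again with CD133- higher in each (difference -0.16). DDIT4, an inhibitor of mTORC1 signalling, had 10.22 and 10.45 in repetition 1, 8.37 and 8.74 in repetition 2, and 10.27 and 10.30 in repetition 3, with a difference of -0.21. Of these 3 targets, the largest gap between the fractions within a repetition was 0.38, for DDIT4 in repetition 2. PFKFB3, which makes the allosteric activator of phosphofructokinase, was higher in CD133+ cells in each repetition by 0.087 to 0.18 (difference 0.14), from signals of 7.55 and 7.46 in repetition 1, 7.62 and 7.46 in repetition 2, and 7.98 and 7.80 in repetition 3. Its paralog PFKFB4 went the other way at -0.12. The hexokinase gene HK1, whose enzyme traps glucose in the cell, had -0.14, from 7.87 and 7.94 in repetition 1, 7.12 and 7.25 in repetition 2, and 7.47 and 7.68 in repetition 3. The adjusted p of these 6 was 0.442 to 0.642 with limma and the block.

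**Figure D2:**
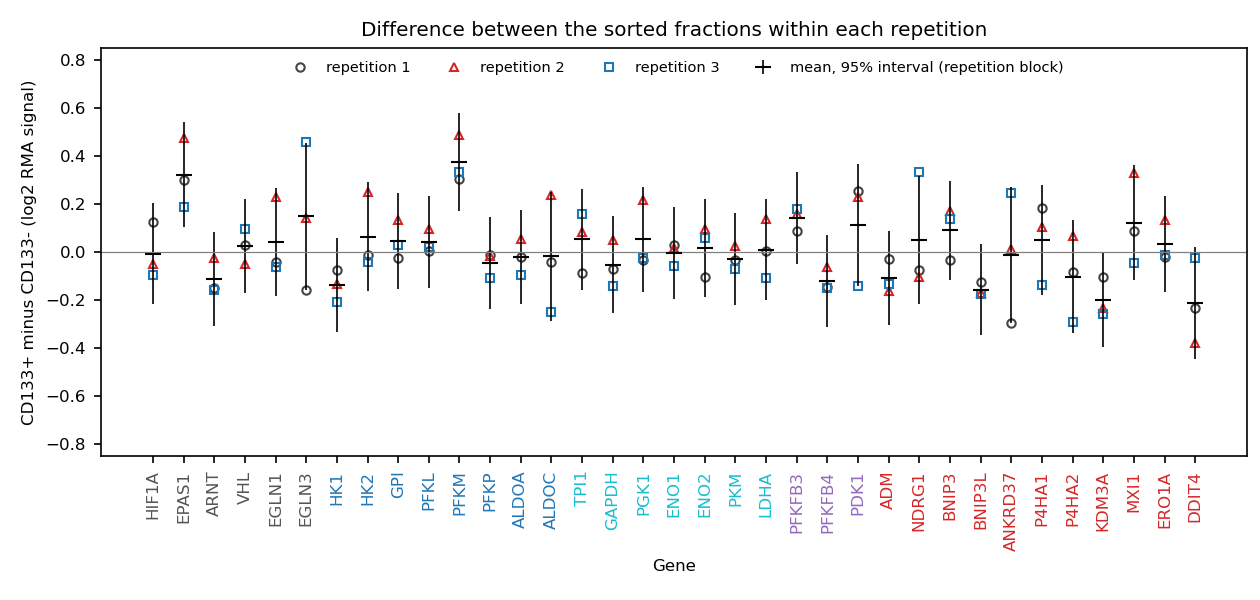
Difference in log2 RMA signal, CD133+ minus CD133-, for each of the 35 genes (horizontal axis, label colour by role as in the heat map) within repetitions 1 (circles), 2 (triangles) and 3 (squares); horizontal ticks are means and vertical lines are 95% intervals of the fit with the repetition block. PFKM and EPAS1 are the 2 genes whose intervals lie wholly above 0, before any adjustment for the number of probe sets.

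The level of a repetition was tested as its mean over both fractions minus the mean of the other repetitions, with fraction as a term. These contrasts share arrays: a low repetition 2 raises the other levels. If the fractions of a repetition came from 1 culture, its 2 arrays do not measure the spread between cultures. For 2 arrays against 4, the smallest exact permutation p is 0.0667. In repetition 2, 25 of 35 genes fell, where 6.44% of all genes did, and 1 rose, where 11.6% of all genes did. The median signal of the set was 9.29 and that of all genes 6.20, and these shares were not matched for signal. The level was below 0 for 32 of 35 genes, against 54.5% of all genes. The median level of the 35 was -0.64 (1.56-fold lower) against -0.027 over all genes. Both repetition 2 arrays lay below the other 4 arrays for 29 of 35 genes, against 19.9% of all genes. Within CD133+ cells the repetition 2 array was the lowest of 3 for 29 genes (35.3% of all genes; median level of the set -0.55) and within CD133- cells for 30 genes (44.5% of all genes; median level of the set -0.77). Lower by more than 1 were 13 of the 35, and these made up 13 of the 62 genes of the array with such a drop (0.337% of all genes). By size of drop, 6 of the 10 lowest genes and 12 of the 50 lowest belonged to the set. The count that fell or rose dropped from 26 to 17 without the CD133+ array of repetition 2 and to 8 without its CD133- array, and these 8 were called with every array left out in turn. They were ALDOC, NDRG1, ANKRD37, ENO2, P4HA1, DDIT4, PFKFB4 and BNIP3L. Another 4 (HIF1A, ARNT, EGLN1 and ALDOA) were called in none of the 6 fits with 1 array left out, and all of the other 14 lost their call at least without the CD133- array of repetition 2. The median level over the 6 left-out fits lay between -0.77 and -0.55. Centring each array on its median moved the median level of all probe sets by 0.11 in repetition 2 and by -0.11 in repetition 3. With that centring the lower share of all called genes in repetition 2 went from 35.7% to 14.9%, and in the set 22 genes were lower and 1 higher, with a median of -0.53. In repetition 3 it turned 725 higher and 1476 lower genes into 325 and 2936, and 9 genes of the set were higher and 1 lower.

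**Figure D3:**
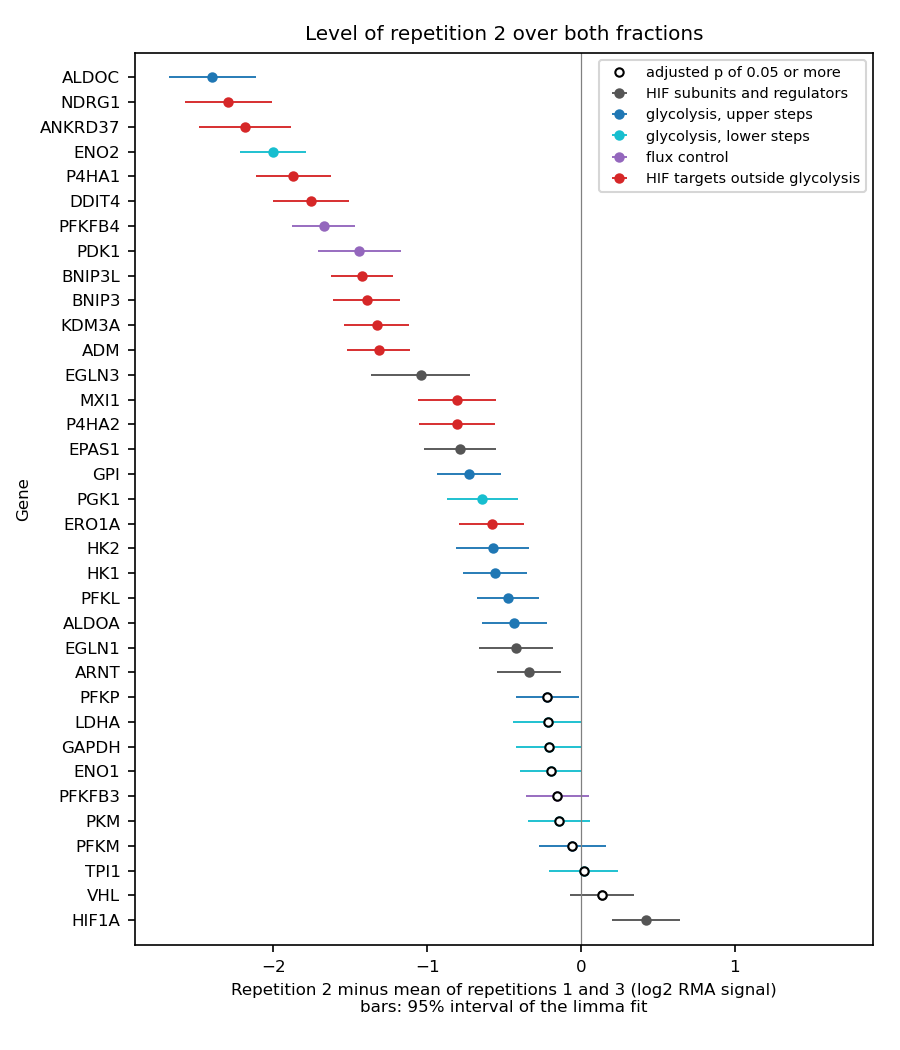
Level of repetition 2, as its mean log2 RMA signal over both fractions minus the mean of repetitions 1 and 3, for each of the 35 genes (vertical axis, sorted); points are estimates of the limma fit coloured by role, bars are 95% intervals, and open points have an adjusted p of 0.05 or more. ALDOC sits lowest at -2.40, 13 genes lie below -1, and HIF1A is highest at 0.42.

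Among the HIF subunits and their regulators, the alpha subunit genes went opposite ways. HIF1A measured 9.34 and 9.21 in repetition 1, 9.57 and 9.62 in repetition 2, and 9.02 and 9.11 in repetition 3. Its CD133- array of repetition 2 was the highest of the 6 and its CD133+ array the second highest, a level of 0.42 (SE 0.092, adjusted p = 0.0320). HIF1A lost its call after repeated quantile normalization (level 0.26, adjusted p = 0.124), with the 4091 leading rows that carry no gene name kept in the fit (adjusted p = 0.0633) and with any of the 6 arrays left out (0.0523 to 0.210). EPAS1, whose arrays are given above, was lowest in repetition 2 in both fractions, at -0.79 (SE 0.10, adjusted p = 0.0104), and lost its call without the CD133- array of repetition 2 (adjusted p = 0.104).

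EGLN3, the prolyl hydroxylase gene most known as a HIF target itself, measured 7.02 and 7.18 in repetition 1, 6.27 and 6.13 in repetition 2, and 7.61 and 7.15 in repetition 3. Both repetition 2 arrays lay at least 0.75 below every other array, a level of -1.04 (SE 0.13, adjusted p = 0.0109). The call ended without either repetition 2 array (adjusted p = 0.0576 without CD133+, 0.102 without CD133-). EGLN1, the main oxygen sensor of the pathway, had -0.42 (SE 0.10, adjusted p = 0.0392), and ARNT had -0.34 (SE 0.087, adjusted p = 0.0491); both lost their call with any of the 6 arrays left out. VHL measured 7.27 and 7.24 in repetition 1, 7.35 and 7.40 in repetition 2, and 7.28 and 7.19 in repetition 3. These 6 values span 0.22, and the level of 0.13 did not pass (limma adjusted p = 0.334).

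Of 3 regulators of glycolytic flux, PFKFB4 and PDK1 fell in repetition 2. PFKFB4, a kinase and phosphatase that sets the phosphofructokinase activator as PFKFB3 does, measured 8.11 and 8.26 in repetition 1, 6.13 and 6.19 in repetition 2, and 7.40 and 7.55 in repetition 3. Both repetition 2 arrays were at least 1.21 below the other 4, and repetition 1 was the highest in both fractions, giving a repetition 2 level of -1.67 (SE 0.085, adjusted p = 0.00283). PFKFB3 had -0.15 (adjusted p = 0.264), and its repetition 2 arrays lay among the others; the difference between the paralogs was not tested. PDK1, which blocks the entry of pyruvate into the citric acid cycle by phosphorylating pyruvate dehydrogenase, measured 8.91 and 8.66 in repetition 1, 7.15 and 6.92 in repetition 2, and 8.10 and 8.24 in repetition 3. Its level of -1.44 was 2.72-fold lower in repetition 2, with adjusted p = 0.00604, and was not called without the CD133- array of repetition 2 (0.0746).

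Of 15 glycolytic enzyme genes, 8 fell in repetition 2, and the largest drops were in the brain-type isoforms of aldolase and enolase. ALDOC measured 10.67 and 10.72 in repetition 1, 8.58 and 8.35 in repetition 2, and 10.90 and 11.15 in repetition 3. The gap between its highest repetition 2 array and its lowest other array was 2.09, and its level was -2.40 (SE 0.12, adjusted p = 0.00283). The major aldolase gene ALDOA, at -0.43 (SE 0.087, adjusted p = 0.0257), was not called with any of the 6 arrays left out (adjusted p = 0.0518 to 0.198), and the difference between these paralogs was not tested. ENO2, the neuron-type enolase gene, measured 10.44 and 10.54 in repetition 1, 8.51 and 8.41 in repetition 2, and 10.46 and 10.40 in repetition 3, and its level was -2.00 (SE 0.09, adjusted p = 0.00283). ENO1, the ubiquitous enolase gene, had -0.19 (95% interval -0.40 to 0.0089), beside -2.22 to -1.79 for ENO2; this difference was not tested either.

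HK2, the inducible hexokinase gene, measured 9.55 and 9.56 in repetition 1, 8.94 and 8.69 in repetition 2, and 9.19 and 9.23 in repetition 3. Repetition 2 was the lowest in both fractions and repetition 1 the highest, with a repetition 2 level of -0.57 (SE 0.10, adjusted p = 0.0178). PGK1, of the first ATP-forming step, measured 11.18 and 11.22 in repetition 1, 10.64 and 10.43 in repetition 2, and 11.14 and 11.17 in repetition 3, with repetition 2 at -0.64 (SE 0.10, adjusted p = 0.0136). HK1 (-0.56), the isomerase gene GPI (-0.73) and PFKL (-0.47) also fell. With ALDOC, ENO2 and ALDOA these make up the 8. The calls of HK1, HK2, PGK1, GPI and PFKL ended without the CD133- array of repetition 2 (adjusted p = 0.124, 0.160, 0.128, 0.104 and 0.161), and those of HK1, HK2 and PFKL also without its CD133+ array (0.0769, 0.0530 and 0.0832). HK2 and PFKL lost their calls too without the CD133- array of repetition 3 (0.0576 and 0.0583), and PFKL without that of repetition 1 (0.0593).

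The other 7 enzyme genes did not pass in repetition 2. LDHA, which regenerates NAD by reducing pyruvate to lactate, measured 12.19 and 12.18 in repetition 1, 11.92 and 11.78 in repetition 2, and 11.90 and 12.01 in repetition 3. Its CD133- array of repetition 2 was the lowest of the 6, its CD133+ array lay just above that of repetition 3, and its level of -0.22 did not pass (adjusted p = 0.166). The levels of GAPDH, PKM, PFKP, PFKM and TPI1, beside ENO1 above, were -0.21, -0.14, -0.22, -0.055 and 0.018, and none passed (adjusted p = 0.133 to 0.919). The 4 probe sets that PGAM1 shares with PGAM4 had levels of -0.52 (limma adjusted p = 0.0272), -0.23, -0.22 and -0.13. GAPDH, PGK1, LDHA, ENO1, TPI1 and ALDOA have close pseudogene copies that can share their probes. Over the 35 genes, mean signal and repetition 2 level had Pearson r = 0.182 and Spearman rho = 0.130, a description over genes that share 6 arrays.

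All 11 HIF targets outside glycolysis fell in repetition 2, with a median level of -1.39, and for each of them both repetition 2 arrays lay below the other 4. NDRG1, a membrane-associated protein of stress and differentiation, measured 10.61 and 10.68 in repetition 1, 8.53 and 8.63 in repetition 2, and 11.26 and 10.92 in repetition 3. Repetition 2 was at least 1.98 below every other array, a level of -2.29 (SE 0.12, adjusted p = 0.00283). ANKRD37 measured 8.30 and 8.60 in repetition 1, 6.35 and 6.34 in repetition 2, and 8.74 and 8.49 in repetition 3, with a level of -2.18 (SE 0.12, adjusted p = 0.00306). P4HA1, a catalytic subunit of collagen prolyl hydroxylase, measured 10.16 and 9.98 in repetition 1, 8.26 and 8.16 in repetition 2, and 10.02 and 10.16 in repetition 3. Its repetition 1 and 3 arrays spanned 0.18 and repetition 2 lay far below, at -1.87 (SE 0.10, adjusted p = 0.00283). The paralog P4HA2 had -0.81 (SE 0.10, adjusted p = 0.0109) and lost its call without the CD133- array of repetition 2 (0.107).

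DDIT4, given above, had a level of -1.75, 3.37-fold lower in repetition 2 (limma adjusted p = 0.00306). The mitophagy genes BNIP3 and BNIP3L moved by like amounts, -1.39 and -1.42. ADM, a secreted vasodilator peptide, measured 9.96 and 9.99 in repetition 1, 8.68 and 8.85 in repetition 2, and 10.12 and 10.25 in repetition 3, at -1.32 (SE 0.086, adjusted p = 0.00407). KDM3A had -1.33, MXI1, a MAX-binding antagonist of MYC, -0.81, and ERO1A, the oxidase of disulphide formation in the endoplasmic reticulum, -0.58. Calls of ADM, KDM3A, BNIP3, MXI1 and ERO1A ended without the CD133- array of repetition 2 (limma adjusted p = 0.0605, 0.0619, 0.0666, 0.107 and 0.131), and that of ERO1A also without its CD133+ array (0.0576).

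The levels of repetitions 1 and 3 are given side by side, and the difference between them was not tested. Against the others, 10 of 35 genes were higher in repetition 1, where 0.266% of all genes were, and 13 of 35 in repetition 3, where 3.94% of all genes were. None of the 35 was lower in either, where 0.0815% of all genes were lower in repetition 1 and 8.02% in repetition 3; in both directions together 0.348% of all genes were called in repetition 1. The level was above 0 for 32 of 35 genes in repetition 1 (46.1% of all genes) and for 28 of 35 in repetition 3 (55.1% of all genes). PFKFB4, PDK1, BNIP3 and KDM3A had levels of 1.37, 1.19, 1.00 and 1.17 in repetition 1 against 0.30, 0.26, 0.40 and 0.16 in repetition 3. NDRG1 and ALDOC had 0.81 and 0.95 in repetition 1 against 1.48 and 1.45 in repetition 3. EGLN3 and EPAS1 were called higher in repetition 3 (0.73 and 0.62) and not in repetition 1 (0.31 and 0.17). The counts for repetitions 1 and 3 both became 0 with the leading rows kept in the fit, and that for repetition 1 also without the fraction term. The repetition 1 count was 0 without the CD133+ array of repetition 1 or of repetition 3, 2 without the CD133- array of repetition 1 and 3 without that of repetition 3. The repetition 3 count was 0 without either array of repetition 3, and 7 without the CD133+ array of repetition 1 or the CD133- array of repetition 2.

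The promoters of the genes with the widest spread between repetitions are shown for the HIF core letters they hold, where the table gave them a single start. PDK1, which is also among the 8 with the widest spread, had 2 starts and is not shown; its windows held 0 and 2 matches. The RefSeq table used here (GRCh38.p14) had promoters of 32 of the 35 genes, and VHL, NDRG1 and BNIP3L had no entry. The 250 bases upstream of each start were searched for ACGTG and GCGTG on both strands, so that CACGTG, which reads ACGTG on either strand, counts as 2 matches. At least 1 match stood in 36 of the 58 windows of these genes (62.1%), against 43.2% of the 35116 windows in the table. Windows of the genes lower by more than 1 in repetition 2 held one in 11 of 13 cases (84.6%), and windows of the other genes in 25 of 45 (55.6%). Genes with several starts give several windows. Counted by gene, 10 of 11 genes lower by more than 1 and 18 of 21 others held a match in at least 1 window, against 12945 of 27305 genes in the table. A match in these letters is a description, not a bound site. The sequences run 5′ to 3′ on the gene's strand and end at the base before the start, with matches in capitals. ENO1 is added, after its values were seen, as the paralog of ENO2 whose level did not pass.
ALDOC (chr17:28576896-28577145, - strand): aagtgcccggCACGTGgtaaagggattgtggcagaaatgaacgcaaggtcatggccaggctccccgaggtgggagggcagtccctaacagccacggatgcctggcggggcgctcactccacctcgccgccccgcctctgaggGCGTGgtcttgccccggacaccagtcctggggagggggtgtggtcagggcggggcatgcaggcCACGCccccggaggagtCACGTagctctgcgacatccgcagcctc
ANKRD37 (chr4:185396591-185396840, + strand): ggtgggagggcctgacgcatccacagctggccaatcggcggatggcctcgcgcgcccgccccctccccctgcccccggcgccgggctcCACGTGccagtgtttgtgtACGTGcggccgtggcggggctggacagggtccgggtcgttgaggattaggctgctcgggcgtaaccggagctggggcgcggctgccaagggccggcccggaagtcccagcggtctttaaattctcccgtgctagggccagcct
ENO2 (chr12:6914330-6914579, + strand): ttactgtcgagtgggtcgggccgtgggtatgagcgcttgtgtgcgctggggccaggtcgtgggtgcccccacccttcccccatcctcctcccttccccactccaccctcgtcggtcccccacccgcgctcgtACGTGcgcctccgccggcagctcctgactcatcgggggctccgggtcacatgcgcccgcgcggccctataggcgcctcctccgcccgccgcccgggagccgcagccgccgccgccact
P4HA1 (chr10:73096867-73097116, - strand): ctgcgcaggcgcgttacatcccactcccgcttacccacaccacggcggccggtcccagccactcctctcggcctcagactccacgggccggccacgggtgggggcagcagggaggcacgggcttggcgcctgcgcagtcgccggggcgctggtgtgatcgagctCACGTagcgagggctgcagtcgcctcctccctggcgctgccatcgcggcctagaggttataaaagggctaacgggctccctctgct
DDIT4 (chr10:72273674-72273923, + strand): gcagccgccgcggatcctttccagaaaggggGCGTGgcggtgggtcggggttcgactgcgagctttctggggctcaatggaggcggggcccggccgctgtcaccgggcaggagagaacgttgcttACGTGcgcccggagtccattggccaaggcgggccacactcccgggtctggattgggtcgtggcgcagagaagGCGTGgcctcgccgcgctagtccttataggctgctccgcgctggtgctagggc
PFKFB4 (chr3:48556804-48557053, - strand): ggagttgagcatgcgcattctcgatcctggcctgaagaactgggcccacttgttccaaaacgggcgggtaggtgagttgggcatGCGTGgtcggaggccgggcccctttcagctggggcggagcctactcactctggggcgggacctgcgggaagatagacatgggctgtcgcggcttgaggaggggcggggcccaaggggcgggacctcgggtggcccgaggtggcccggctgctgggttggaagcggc
ENO1 (chr1:8878687-8878936, - strand): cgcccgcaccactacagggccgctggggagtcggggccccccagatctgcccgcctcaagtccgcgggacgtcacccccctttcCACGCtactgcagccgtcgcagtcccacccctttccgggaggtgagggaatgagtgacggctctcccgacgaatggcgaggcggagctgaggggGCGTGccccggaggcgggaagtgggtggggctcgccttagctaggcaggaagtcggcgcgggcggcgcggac
ALDOC held 5 matches, with the palindrome CACGTG starting 240 bases upstream and the nearest match starting 28 bases upstream. ANKRD37 held 3, including a CACGTG that starts 162 bases upstream, and DDIT4 held 3, while ENO2, P4HA1 and PFKFB4 held 1 each. ENO1 held 2, both of the GCGTG kind, one on each strand.

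Genes of the same pathway outside the set, from lists chosen with earlier results of these data known, showed the repetition 2 pattern in part. Of 19 other HIF targets measured, 13 fell in repetition 2 and 1 rose, where 6.44% and 11.6% of all genes did. Their median level was -0.53. Those that fell were ANGPTL4 (-1.64), a secreted inhibitor of lipoprotein lipase, SLC2A3 (-1.80), a glucose transporter, INSIG2 (-1.46), a brake on sterol synthesis, BHLHE40 (-1.30), a transcriptional repressor, PLOD2 (-1.16), a collagen lysyl hydroxylase, FAM162A, PLOD1, VEGFA, KDM4B, GBE1, SLC2A1, KDM4C and AK4. TFRC, the transferrin receptor gene, rose by 0.60. SLC2A1, KDM4C and AK4 were called in none of the 6 fits with 1 array left out (limma adjusted p = 0.0535 to 0.278). Without the CD133+ array of repetition 2 the lower count was 6, without its CD133- array it was 2 (ANGPTL4 and SLC2A3), without the CD133- array of repetition 3 it was 8, and TFRC was not called without either array of repetition 2. PLOD2 and BHLHE40 were also higher in repetition 1 (0.70 and 0.80) and, with SLC2A3 (1.82), in repetition 3, where TFRC was lower (-0.54). SLC2A3 was the 1 gene of these lists called between fractions, lower in CD133+ cells by a fitted -1.72 with the block (adjusted p = 0.0245). It was not called with group alone (1.00), with the block and the leading rows kept (0.157) or with the block and without repetition 3 (0.132). For SLC2A1, CD133+ minus CD133- was -0.64, -1.05 and -0.54 in repetitions 1, 2 and 3, and it was not called (limma adjusted p = 0.0848 with the block). The fractions did not overlap for 2 of the 19 targets, where 7.95% of all genes had this. These were SLC2A1 and CA12, which was higher in CD133+ cells (difference 0.31).

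Other HIF regulators had a median level of 0.21 in repetition 2. For each list of this paragraph, the shares over all genes were 11.6% higher and 6.44% lower in repetition 2. Of 10 measured, CUL2, a scaffold of the VHL ligase, its adaptor ELOC and the coactivator CREBBP rose in repetition 2 (0.66, 0.56 and 0.37), and CITED2, which competes with HIF for coactivators, fell (-0.42); CUL2 was lower in repetition 3 (-0.59). Of 18 other glycolysis and pyruvate genes, 3 rose in repetition 2 and 3 fell. TIGAR, a phosphatase that lowers the phosphofructokinase activator, rose by 1.11, and the genes ADPGK and HKDC1, whose enzymes phosphorylate glucose, rose by 0.51 and 0.45, whereas the pyruvate dehydrogenase kinase genes PDK4 and PDK3 had -0.68 and -0.66 and the muscle enolase gene ENO3 -0.37. PDK3 was higher in repetition 1, and TIGAR, ADPGK and PDHA1 were lower in repetition 3. Of 12 gluconeogenesis and pentose phosphate genes, 3 rose in repetition 2, namely RPIA (0.79) and RPE of the pentose phosphate path and G6PC3, and 0 fell. None of the genes of these 3 lists was called without the CD133- array of repetition 2, and the cause was not tested. CREBBP, ENO3, RPE and G6PC3 were called in none of the 6 fits with 1 array left out (limma adjusted p = 0.0639 to 0.264). HKDC1 was called only without the CD133- array of repetition 1 and CITED2 only without the CD133+ array of repetition 3. ADPGK was called only without 1 or the other of these 2 arrays.

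Proliferation genes moved with the repetitions too. Of 14 measured, 11 were higher in repetition 2 (median 0.56), where 11.6% of all genes were. In repetition 3, 14 were lower (median -0.66), where 8.02% of all genes were. Over all probe sets, 2913 calls of repetition 3 became 29 with the leading rows kept and 0 to 1828 with 1 array left out. The higher count in repetition 2 was 0 without its CD133- array, 3 without its CD133+ array, and 6 to 9 without another array. Their summed signal on the log2 scale ran from 12.93 to 13.59 in CD133+ and from 12.72 to 13.64 in CD133- arrays. The cell contact gene CDH1 and the keratin gene KRT19 were lower in repetition 2 (-0.81 and -0.37). The fibroblast marker COL1A1 was lower there too (-0.86). CDH1 and COL1A1 lost their calls without the CD133- array of repetition 2 (limma adjusted p = 0.137 and 0.0891). KRT19 was called in none of the 6 fits with 1 array left out (0.0703 to 0.270). The leukocyte marker CD14 was higher in repetition 3 (0.47), and the measured leukocyte markers had mean signals of at most 5.45. The part of these genes, and of any batch behind the repetition numbers, in the levels of the HIF targets was not tested.

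**Figure D4:**
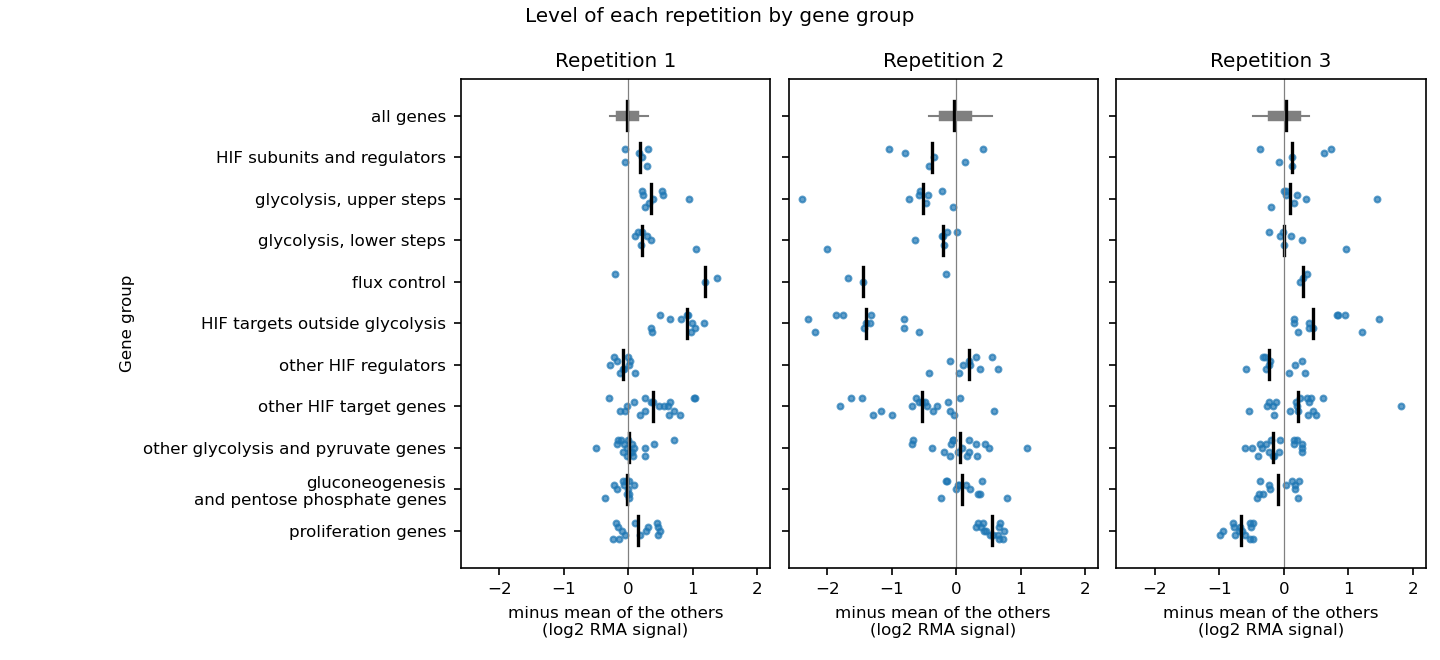
Level of repetitions 1, 2 and 3 (panels), each as its mean log2 RMA signal minus the mean of the other repetitions, by gene group (vertical axis); points are genes, black ticks are medians, and for all genes the thick and thin grey lines span percentiles 25 to 75 and 5 to 95. HIF targets outside glycolysis lie at -2.29 to -0.58 in repetition 2, while proliferation genes lie above 0 there and below 0 in repetition 3.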

How the data were processed

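Total RNA of sorted HCT116 cells was measured on 6 Affymetrix arrays. The deposited values are log2 signals that the authors extracted and normalized by RMA, per the submitters' processing notes, with no software version stated in the labels. Probe set identifiers match a whole-transcript Human Gene annotation, which named the genes here, although a U133 array is named in the series' design. Of 32321 rows, 4091 that precede the first annotated row were left out as controls, and 28230 were tested. Of these, 19158 had 1 symbol, 1388 several and 7684 none; the probe set of highest mean stood for each of 18404 genes. limma 3.58.1 (R 4.3.3) was fitted over all 28230 probe sets with Benjamini-Hochberg adjustment at 0.05, and its script was tested on simulated data. The fraction fit had group alone, with the repetition block as an alternative; repetition levels came from a fit of repetition and fraction. Same-numbered CD133+ and CD133- arrays deviated together (r = 0.447, 0.616 and 0.589), which bears out the pairing by number. The genes named with every array were the 8 with the smallest p between fractions, the 8 with the widest range of repetition means, and 10 chosen by name. Members and lists were chosen with earlier results of these data known. Alternatives were quantile normalization, median centring, leading rows kept, a signal filter, an intensity trend and each array left out. The block combined with quantile normalization or with the leading rows, and the alternatives for PROM1, SLC2A3 and the pathway lists, were added after seeing the data.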

Additional observations from a re-analysis of the deposited data

How the results depend on the processing

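The repetition numbers were also fitted as a replicate block; it changed no call among the 35 genes between fractions (0 with and without it) and moved the count of all called probe sets from 1 to 84. That count was 0 with quantile normalization repeated, 0 with arrays centred on their medians, 0 with the leading rows kept, 67 with the block and quantile normalization together, 0 with the block and leading rows, and 0 to 43 with arrays or repetitions left out. With arrays or repetitions left out, the genes of the set higher in CD133+ numbered 6 to 32 and their median difference ran from -0.20 to 0.23. A left-out array unbalances the repetitions in the fit without the block. Fraction differences that changed sign in this way ran from -0.63 to 0.25 for KDM3A, -0.76 to 0.41 for DDIT4, -0.63 to 0.32 for BNIP3L, -0.33 to 0.046 for HK1, -0.69 to 0.42 for PFKFB4, -0.88 to 0.72 for ALDOC, -0.67 to 0.85 for NDRG1, -0.75 to 0.71 for ANKRD37, -0.67 to 0.67 for ENO2, -0.59 to 0.66 for P4HA1, -0.40 to 0.56 for PDK1, -0.14 to 0.14 for HIF1A, -0.0198 to 0.088 for VHL, -0.53 to 0.34 for ADM, -0.20 to 0.50 for EGLN3, -0.17 to 0.27 for HK2, -0.20 to 0.23 for PGK1, -0.093 to 0.11 for LDHA. With the block, the count of called probe sets was 43, 18 and 0 without repetitions 1, 2 and 3, and differences that changed sign were: without repetition 1, 0.13 for ANKRD37, -0.016 for P4HA1; without repetition 2, -0.021 for ENO2, 0.015 for HIF1A, -0.028 for HK2, -0.029 for PGK1, -0.052 for LDHA; without repetition 3, 0.098 for ALDOC, -0.0897 for NDRG1, -0.0041 for ENO2, 0.039 for HIF1A, -0.0105 for VHL, -0.0075 for EGLN3. Quantile normalization, with or without the block, also turned ENO2 to -0.018 and LDHA to -0.027. For repetition 1, 113 called probe sets became 0 without the fraction term, 3 with leading rows kept, 882 over probe sets above the median signal, 731 with an intensity trend, and 5 to 106 with 1 array left out. For repetition 1, 10 called genes of the set became 0 without the fraction term, 0 with leading rows kept, 17 over probe sets above the median signal, 19 with an intensity trend, and 0 to 7 with 1 array left out. For repetition 2, 4133 called probe sets became 2031 with leading rows kept, 6251 over probe sets above the median signal, and 21 to 2343 with 1 array left out. For repetition 2, 26 called genes of the set became 8 to 22 with 1 array left out. For repetition 3, 2913 called probe sets became 1259 without the fraction term, 29 with leading rows kept, 5651 over probe sets above the median signal, 4896 with an intensity trend, and 0 to 1828 with 1 array left out. For repetition 3, 13 called genes of the set became 8 without the fraction term, 0 with leading rows kept, and 0 to 9 with 1 array left out. Levels of a repetition that changed sign were -0.15 to 0.045 for HIF1A in repetition 1, -0.14 to 0.031 for PFKM in repetition 2, -0.024 to 0.082 for HK1 in repetition 3, -0.0502 to 0.11 for HK2 in repetition 3, -0.16 to 0.023 for LDHA in repetition 3 with 1 array left out, and 0.059 for PFKM in repetition 2 and -0.076 for both HK1 and HK2 in repetition 3 after centring. The cause of these changes was not tested.

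With 3 arrays a fraction and 2 a repetition, precision is limited by the number of arrays, and an exact permutation test of 3 against 3 cannot give a p below 0.1. Keeping the leading rows, which have no gene name, lowered the counts of calls for each repetition.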
